A study of Mus musculus with 2 samples.

Results

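The genes described are 5 lysyl oxidases (*Lox*, *Loxl1*, *Loxl2*, *Loxl3* and *Loxl4*) and 5 proteins of the elastic fibre (*Eln*, *Fbn1*, *Fbn2*, *Fbln5* and *Efemp2*), measured in ureters of newborn mice in which SHH signaling had been inhibited for 18 h. They are 10 of the 29924 genes on the array. They were chosen by name, with the rise of *Lox* in these data already known, and all 17 gene probes that carry these names were taken out of 39429. The brightest probe of a gene, by its mean over all channels, stands for that gene, and the dimmer probes are given beside it. Of the 17 probes, 16 were well above background in enough spots to be tested, and at least 1 probe of each of the 10 genes was among them, of 19346 genes tested in all.

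Elastic fibres give distensible tubes such as arteries, airways and the ureter their recoil. They are made of a core of crosslinked elastin laid down on microfibrils of fibrillin, with the fibulins encoded by *Fbln5* and *Efemp2* guiding elastin and the crosslinking enzymes to the scaffold. The lysyl oxidases are copper-dependent enzymes that oxidise lysine side chains of elastin and collagens, which then react with each other to form the crosslinks.

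Ureters of wildtype NMRI mice were explanted at postnatal day 0 and cultured for 18 h with 10 µM cyclopamine, an inhibitor of SMO, which passes the SHH signal into the cell, or with the solvent DMF at 1 in 1000, in pools of 5 or 6 ureters. RNA from these pools was hybridised to 2 two-colour Agilent whole-genome oligonucleotide arrays, with treated and control RNA side by side on each. Replicate 1 held female pools with the control in the green channel, and replicate 2 held male pools with the control in the red channel, so sex, dye orientation and replicate number cannot be told apart. The source name of a channel is IWP-2, a WNT inhibitor, where the title and treatment entries give cyclopamine, and the study's methods name ethanol as the solvent of cyclopamine where the labels name DMF.

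The SHH targets *Gli1*, *Ptch1*, *Hhip*, *Foxf1* and *Foxl1* fell by limma, with a mean log2 ratio of -1.96 for *Gli1* and -1.31 for *Ptch1*. No spot was saturated. The control channel of replicate 1 was brighter than that of replicate 2, with a 75th percentile of 3338 against 628 intensity units, so levels are compared across arrays only after each channel was scaled to its own 75th percentile. Each comparison rests on 2 arrays and on 1 residual degree of freedom per probe. Its p-values use a variance between these arrays that limma draws largely from all tested probes together. The standard error behind them was 0.231 for the brightest *Lox* probe (SD 0.48) and 0.226 for the *Eln* probe (SD 0.03). The p-values therefore reflect the spread of a single gene only weakly, and cover no spread beyond these arrays. In such whole-organ RNA, fewer cells of a type and less RNA per cell cannot be told apart.

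The probes are 60-base oligonucleotides. Lysyl oxidases share a conserved catalytic region, so the probes of the 10 genes were slid along each other without gaps, with at least 30 bases overlapping. At that minimum overlap, the pair from different genes with the highest share of matching bases was the dimmer *Lox* probe and the brightest *Loxl1* probe, with 31 of 51 overlapping bases (60.8%), followed by the brightest *Loxl1* probe and a dimmer *Loxl2* probe, with 19 of 32 (59.4%). The first pair joins *Lox* and *Loxl1*, which were both higher on both arrays, and its alignment is not shown. The second pair is shown because *Loxl1* was higher on both arrays while this *Loxl2* probe was not. The *Loxl1* probe lies on the minus strand at chr9:58138570-58138629 and the *Loxl2* probe on the plus strand at chr14:70092141-70092200 of the mm9 build. Capitals mark bases identical to the aligned base of the partner.
Loxl1: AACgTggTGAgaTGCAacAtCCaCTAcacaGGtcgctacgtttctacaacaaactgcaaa
Loxl2: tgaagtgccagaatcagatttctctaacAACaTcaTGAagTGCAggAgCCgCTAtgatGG
In this alignment the matches form runs of at most 4 bases. Likeness between probes cannot show whether a probe also binds the transcript of another gene, and that was not tested.

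*Lox*, which encodes the founding lysyl oxidase, rose with cyclopamine. Its control intensity was 5124 on replicate 1 and 1408 on replicate 2, and its cyclopamine intensity 13064 and 2240. Both cyclopamine channels lay above both control channels after scaling, at 1.96 and 1.84 against 0.62 and 1.16 log2 units relative to the 75th percentile. The ratio was 2.55-fold on replicate 1 and 1.59-fold on replicate 2, a mean log2 ratio of 1.01 ± 0.48 (SD, n = 2 arrays) with an adjusted p = 0.00969 by limma. *Lox* was the only member called, and 0.439% of all tested genes were called as higher (85 of 19346). No member was called as lower, against 0.868% of all genes. *Lox* was also the only member to pass a filter of the study's kind, which asked for a control above 100 intensity units and a ratio of 1.5-fold or more, here on each array in 1 direction. The paper describes its filter for genes with reduced expression, and here the same fold limit was applied to rises as well. Of 13647 genes, 0.213% passed the filter used here as higher and 0.630% as lower.

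The other *Lox* probe, also on chromosome 18, gave 2472 and 595 in the control and 5404 and 955 in the cyclopamine channels. Its channels did not overlap after scaling either, its log2 ratios were 1.13 and 0.68, and its mean was 0.91 ± 0.32 (adjusted p = 0.0247 by limma). The call on the brighter probe did not hold under 3 of 8 other ways of testing it by limma. Its adjusted p was 0.0558 after normexp background correction with an offset of 50. It was 0.511 with the authors' value table and 0.999 when the 4 channels were taken as separate samples. Those last 2 settings called no probe of any gene, and the mean log2 ratio of *Lox* in them was 1.00 and 1.01.

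*Loxl1*, an enzyme linked to the upkeep of elastic fibres, was higher on both arrays without passing the test. The control channels read 12699 and 2582 and the cyclopamine channels 19666 and 3373, and the scaled channels did not overlap. The ratios were 1.55-fold and 1.31-fold, a mean log2 ratio of 0.51 ± 0.17 with an unadjusted p = 0.0290 and an adjusted p = 0.434 by limma. The other *Loxl1* probe (chr9:58145451-58145510, minus strand) was also higher on both arrays, at 0.28 and 0.27 log2 units (adjusted p = 0.742). *Lox* and *Loxl1* were the 2 members with an unadjusted p below 0.05, a limit that 9.06% of all tested genes passed (1752 of 19346).

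**Figure D1:**
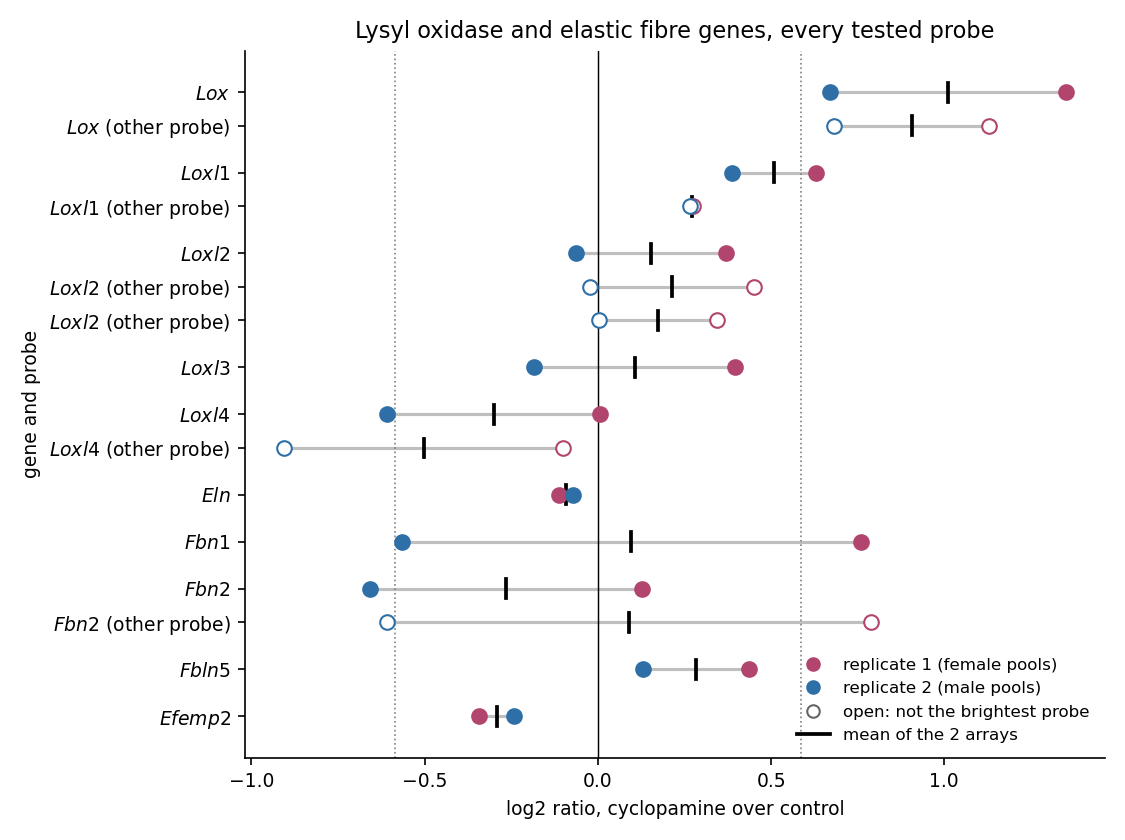
Log2 ratio of cyclopamine over control for the 16 tested probes of the 10 genes on each array (points, filled for the brightest probe) with the mean of the 2 arrays (bar); the dotted lines mark 1.5-fold. Both *Lox* probes lie to the right on both arrays, while the *Fbn1* points lie on opposite sides of 0 at 0.76 and -0.57.

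*Loxl2*, an enzyme that crosslinks collagen IV of basement membranes, split between the arrays. Its brightest probe (chr14:70095254-70095313, plus strand) read 10463 in the control and 13529 with cyclopamine on replicate 1, and 2929 against 2805 on replicate 2. The log2 ratios were 0.37 and -0.06 (mean 0.15 ± 0.31, adjusted p = 0.872 by limma), and the channels of the groups overlapped. All 3 *Loxl2* probes gave nearly the same picture, with 0.34 to 0.45 on replicate 1 and -0.06 to 0.00 on replicate 2.

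*Loxl3* (chr6:83001888-83001947, plus strand), a lysyl oxidase needed in the developing skeleton and palate, was dimmer, with control intensities of 757 and 158 and cyclopamine intensities of 997 and 139. It was higher on replicate 1 (0.40) and lower on replicate 2 (-0.18), with a mean of 0.11 ± 0.41 (adjusted p = 0.917 by limma). *Loxl4* (chr19:42668733-42668792, minus strand), another member of the family, had control intensities of 325 and 74.6 and cyclopamine intensities of 326 and 48.9. Its log2 ratio was 0.01 on replicate 1 and -0.61 on replicate 2 (mean -0.30 ± 0.44, adjusted p = 0.718), and its control intensity on replicate 2 lay under 100, outside the study's filter. The other *Loxl4* probe was lower on both arrays, at -0.10 and -0.91, with channels that did not overlap (mean -0.50 ± 0.57, unadjusted p = 0.0353, adjusted p = 0.472).

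*Eln* (chr5:135179129-135179188, minus strand), which encodes tropoelastin, the soluble precursor of the elastic core, differed little between the groups. The control intensities were 2321 and 452 and the cyclopamine intensities 2145 and 430. The scaled control channels, at -0.53 and -0.47, lay just above the cyclopamine channels, at -0.64 and -0.54. The log2 ratios were -0.11 and -0.07, with a mean of -0.09 ± 0.03 (adjusted p = 0.930 by limma).

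*Fbn1* and *Fbn2* encode the fibrillins of the microfibril, and both turned in opposite directions on the 2 arrays. *Fbn1* (chr2:125126727-125126786, minus strand) went from 9721 to 16465 with cyclopamine on replicate 1, and from 4061 to 2742 on replicate 2. These are 1.69-fold and 0.675-fold, or 0.76 and -0.57 on the log2 scale, with a mean of 0.10 ± 0.94 (adjusted p = 0.932 by limma). A change of at least 1.5-fold up on replicate 1 and down on replicate 2 was found in 0.114% of tested genes (22 of 19346), *Fbn1* among them.

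The brightest *Fbn2* probe, on chromosome 18, read 5965 against 6512 with cyclopamine on replicate 1, and 1826 against 1158 on replicate 2. Its log2 ratios were 0.13 and -0.66, while the other *Fbn2* probe gave 0.79 and -0.61. On replicate 2 the 2 *Fbn2* probes therefore gave similar ratios, with a gap of 0.05 log2 units, and on replicate 1 they lay 0.66 log2 units apart, more than the spread between the spots of a probe, which was at most 0.12 log2 units (SD) over the tested probes of the 10 genes. The means were -0.27 ± 0.55 and 0.09 ± 0.99 (adjusted p = 0.756 and 0.938 by limma).

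*Fbln5* (chr12:102988153-102988212, minus strand), which encodes the fibulin that tethers elastin to microfibrils and binds *Loxl1*, was higher on both arrays. The control channels read 3596 and 506 and the cyclopamine channels 4862 and 554, which is 0.44 and 0.13 on the log2 scale (mean 0.28 ± 0.22, adjusted p = 0.735 by limma). The scaled channels of the groups overlapped, because the whole of replicate 1 lay above replicate 2. A second *Fbln5* probe was not well above background and was not tested.

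*Efemp2* (chr19:5481762-5481821, plus strand), which encodes fibulin-4, the adaptor that brings *Lox* to tropoelastin, was lower on both arrays without passing the test. The control intensities were 15066 and 2451 and the cyclopamine intensities 11881 and 2073. The scaled channels did not overlap, and the log2 ratios were -0.34 and -0.24 (mean -0.29 ± 0.07, adjusted p = 0.723 by limma).

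**Figure D2:**
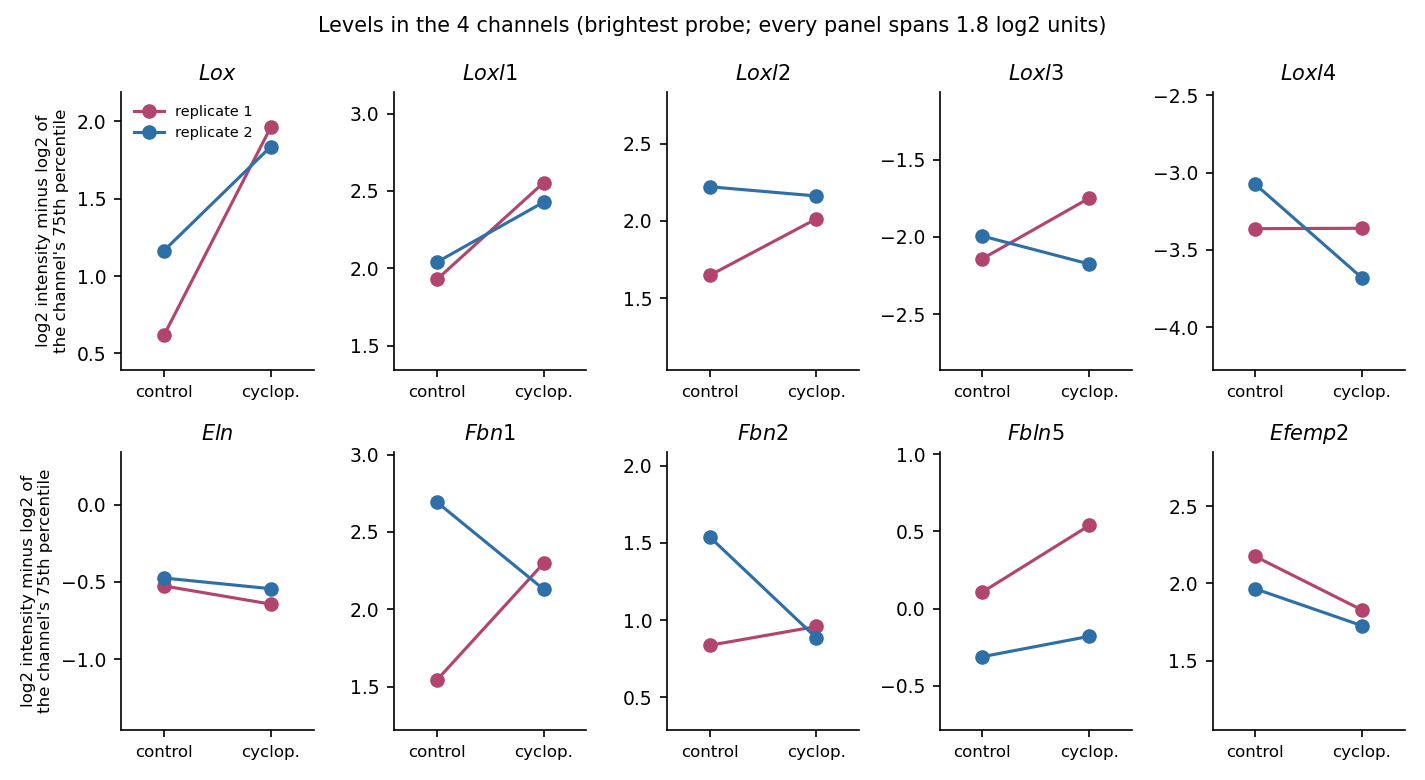
Level of the brightest probe of each gene in the control and cyclopamine channels of both arrays, as log2 intensity minus the log2 of the channel's 75th percentile; lines join the channels of an array. The *Lox* lines both climb, from 0.62 and 1.16 to 1.96 and 1.84, whereas the *Fbn1* lines cross.

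Across the 10 genes, 3 were higher on both arrays (*Lox*, *Loxl1* and *Fbln5*), 2 were lower on both (*Eln* and *Efemp2*) and 5 had opposite signs. Of all tested genes, 28.6% were higher on both, 29.0% lower on both and 42.4% opposite, so these counts lie near the background. On replicate 1, 8 of the 10 were higher with cyclopamine, and on replicate 2, 3 of the 10, where 49.8% and 49.9% of all genes were. All 5 members with opposite signs were higher on replicate 1 and lower on replicate 2, a combination that 21.1% of all genes had. These counts rest on the brightest probes and on some values near 0, such as *Loxl4* on replicate 1 (0.0069) and *Loxl2* on replicate 2 (-0.062). The other *Loxl4* probe was lower on both arrays, and a dimmer *Loxl2* probe was higher on both. The channels of the groups did not overlap in 4 of the 10 (*Lox*, *Loxl1*, *Eln* and *Efemp2*), against 28.1% of all genes. The median log2 ratio of the 10 genes was 0.38 on replicate 1 and -0.13 on replicate 2, with a median mean of 0.10, where the medians of all genes were -0.00, -0.00 and -0.01. The lysyl oxidases had medians of 0.40 and -0.06, and the elastic fibre proteins of 0.13 and -0.24.

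**Figure D3:**
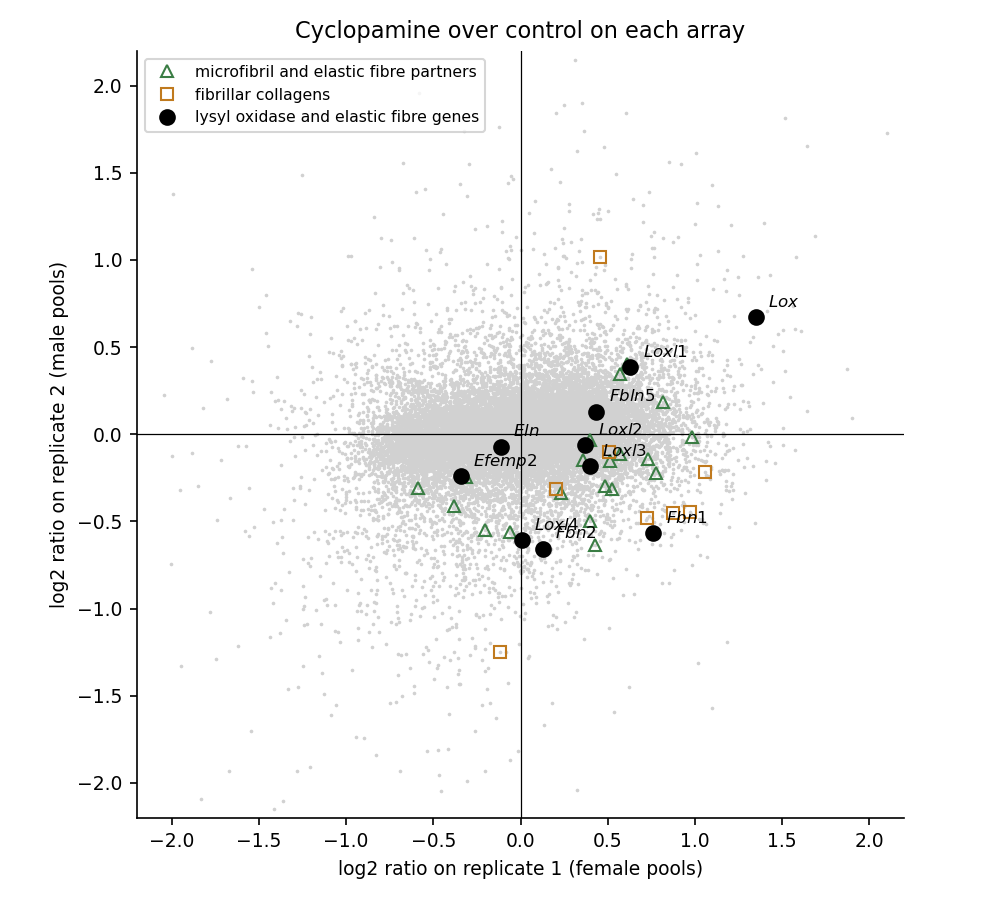
Log2 ratio of cyclopamine over control on replicate 1 (x axis) against replicate 2 (y axis) for the tested genes (grey; genes beyond the axes are not drawn), the 10 lysyl oxidase and elastic fibre genes (black), and their microfibril partners and fibrillar collagens (open symbols). *Lox* lies at 1.35 and 0.67, away from the other named genes, and *Fbn1* lies at 0.76 and -0.57, beside several collagens.

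Of 13638 other tested genes whose control read above 100 on each array, 42 lay within 0.5 log2 units of the pair of ratios of *Lox*. The nearest was *Mmp13*, which encodes collagenase-3, at 1.41 and 0.71 (distance 0.0747, adjusted p = 0.00579 by limma), followed by 4 sequences named only by accession, clone or probe numbers, at distances of 0.113 to 0.190. Around *Eln*, 9157 genes lay within the same distance, and the 5 nearest (*Cd63*, *Riok1*, *H2afy*, *Cox15* and an unnamed transcript) were at distances of 0.0013 to 0.0050. A likeness over 2 arrays is a description of these values.

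Gene length moved with the ratios on replicate 1. Over 22468 tested probes with a known gene length, which share the library and the dye orientation of an array, Spearman's rho between the genomic length of the gene and the log2 ratio was 0.44 on replicate 1 and 0.03 on replicate 2. At the length of *Fbn1* (206 kb) and of *Fbn2* (202 kb) the lowess trend over all probes, less its median, stood at 0.27 on replicate 1 and -0.04 on replicate 2. At the length of *Lox* (13.8 kb) it stood at -0.12 and -0.00, and at that of *Efemp2* (8.58 kb) at -0.20 and -0.02.

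With this trend removed, the *Lox* ratios were 1.47 and 0.67 (mean 1.07, adjusted p = 0.000158 by limma). *Fbn1* kept opposite signs, at 0.49 and -0.53. The brightest *Fbn2* probe was then lower on both arrays, at -0.14 and -0.62 (mean -0.38, adjusted p = 0.474). What produced the trend was not tested.

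**Figure D4:**
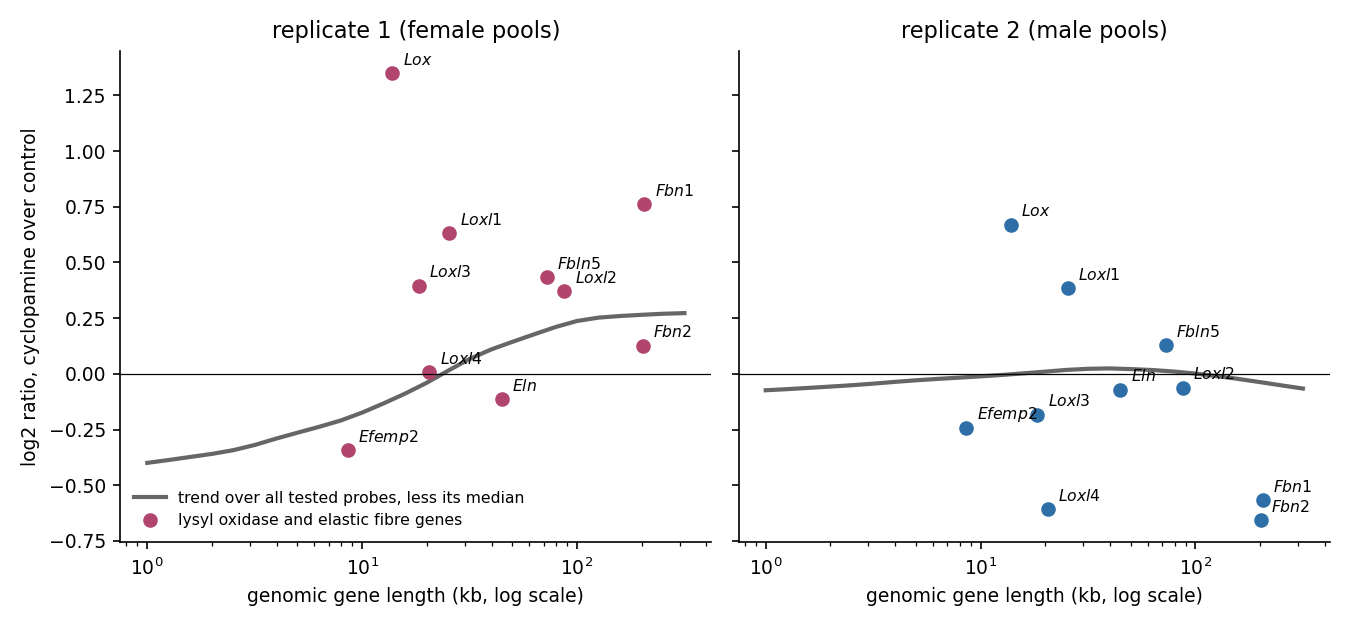
Log2 ratio of cyclopamine over control against genomic gene length (kb, log scale) for the 10 genes on each array, with the lowess trend over all tested probes less its median (line). On replicate 1 the trend climbs with length, to 0.27 at *Fbn1*, and on replicate 2 it stays near 0; *Lox* lies above it on both.

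The proteins that build and regulate microfibrils with the fibrillins were described as a list of 20 genes (the Mfap and Emilin families, fibulins, latent TGF-beta binding proteins, Adamts proteins, versican and biglycan). None of the 20 was called by limma, and 4 had an unadjusted p below 0.05, against 9.06% of all genes. Their median log2 ratio was 0.46 on replicate 1 and -0.23 on replicate 2, and 12 of them were higher on replicate 1 and lower on replicate 2, 3 were higher on both and 5 lower on both. The lowest was *Mfap5*, which encodes a glycoprotein on the fibrillin microfibril, at -0.59 and -0.31 (control 12887 and 1588, cyclopamine 8587 and 1282, mean -0.45, adjusted p = 0.544). *Mfap2* and *Mfap4*, named here after their values were seen, were likewise lower on both arrays, with means of -0.28 and -0.40. The highest was *Adamtsl2*, a fibrillin-binding protein, at 0.61 and 0.40 (adjusted p = 0.434), from a dim probe with control intensities of 44.9 and 7.90. *Fbln1*, also named after its values were seen, was higher on both arrays from a bright probe (control 21934 and 7152). It stood at 0.82 and 0.19 (mean 0.50, adjusted p = 0.463 by limma).

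A list around lysyl oxidase maturation held proteases that cleave the proenzyme, copper handling genes, matrix proteins and enhancers of procollagen cleavage. Of its 10 genes, 9 were tested (*Tll2* was not well above background). None was called by limma, and 0 had an unadjusted p below 0.05. The lowest was *Pcolce2*, an enhancer of procollagen cleavage, with a mean of -0.37 (adjusted p = 0.648), and the highest was *Atp7a*, the copper pump that supplies lysyl oxidases in the secretory pathway, at 0.90 and -0.19 (mean 0.36, adjusted p = 0.672). *Bmp1*, the main protease that releases active *Lox*, named here after its values were seen, stood at 0.04 and 0.14. The median of the 9 was 0.04 on replicate 1 and -0.19 on replicate 2.

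The fibrillar collagens, the other substrates of lysyl oxidases, had the widest split between the arrays of these 5 lists. Of 8 genes, 6 were higher on replicate 1 and lower on replicate 2, the medians were 0.62 and -0.38, and none was called by limma (2 at an unadjusted p below 0.05, against 9.06% of all genes). *Col11a1* was lowest, at -0.12 and -1.25 (mean -0.68, adjusted p = 0.203), with a cyclopamine intensity of 29.2 on replicate 2. *Col2a1* was highest, at 0.46 and 1.02 (mean 0.74, adjusted p = 0.116), with control intensities of 62.3 and 10.4.

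Of 12 elastases, matrix proteases and their inhibitors, *Mmp7* was called as higher, with a mean of 1.23 (adjusted p = 0.00381 by limma). Its probe was dim, with 25.7 and 5.64 in the control and 31.8 and 24.6 with cyclopamine, and the ratio was 0.31 on replicate 1 and 2.15 on replicate 2. The call was absent with the authors' value table, with normexp at either offset and with 4 separate channels. *Timp3*, an inhibitor of metalloproteinases, was lowest, at -0.36 and -0.38 (mean -0.37, adjusted p = 0.644). The 3 genes of the elastin receptor complex lay between 0.10 (*Neu1*) and 0.14 (*Ctsa*), and none was called by limma (0 at an unadjusted p below 0.05).

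**Figure D5:**
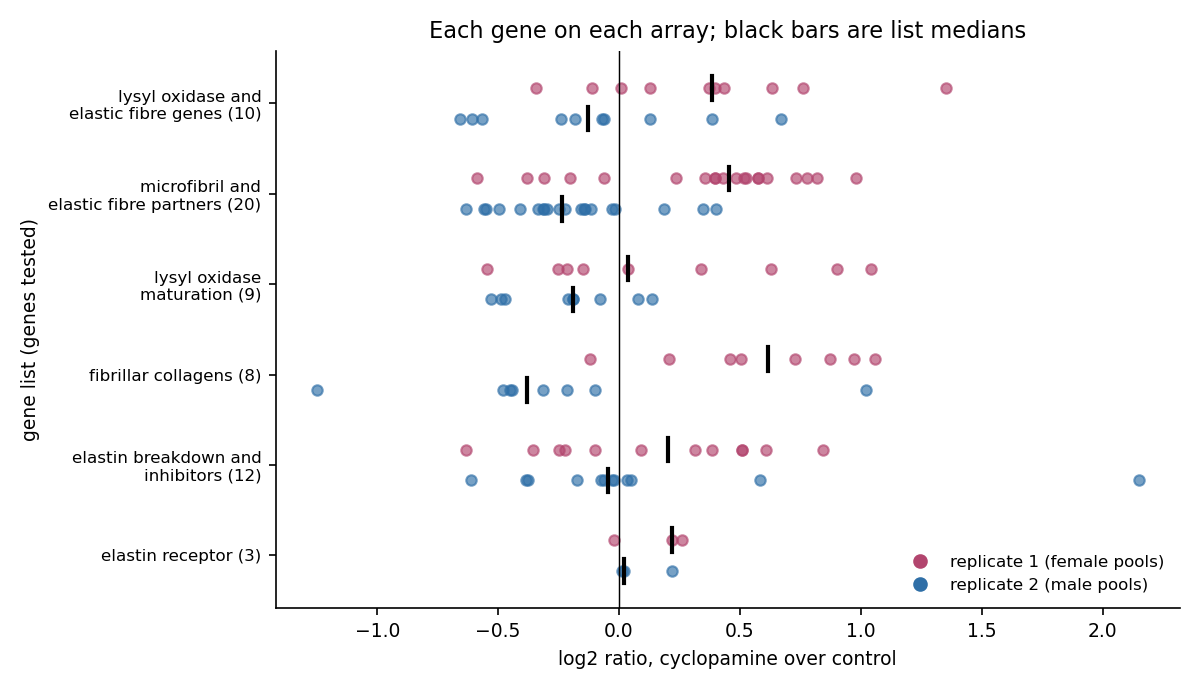
Log2 ratio of cyclopamine over control of every tested gene of each list on replicate 1 and replicate 2 (points), with the median of each list on each array (bar). The medians of the microfibril partners (0.46 and -0.23) and fibrillar collagens (0.62 and -0.38) lie on opposite sides of 0, as do those of the 10 genes (0.38 and -0.13).

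Markers of the cell types of the ureter were read beside these genes, and none of the markers was called by limma. At an unadjusted p below 0.05 there were 2 smooth muscle, 3 fibroblast and lamina propria, 1 glial and 1 kidney marker, where 9.06% of all genes passed that limit. The 6 smooth muscle markers had median log2 ratios of -0.03 and -0.38 on replicates 1 and 2, and their summed intensity, in multiples of the 75th percentile, was 90.9 and 135 in the control and 88.2 and 85.5 in the cyclopamine channels. The 6 markers of fibroblasts and lamina propria had medians of 0.27 and -0.16 and sums of 59.7 and 106 in the control against 79.2 and 96.3. Within that list the lamina propria genes *Thy1* and *Aldh1a2* were lower on both arrays (means -0.81 and -0.64, adjusted p = 0.0580 and 0.219 by limma). *Pdgfra* stood at 1.27 and 0.01 and *Dpt* at 0.13 and 0.12. *Lum* (0.44 and -0.23) and *Dcn* (0.42 and -0.09) had opposite signs. *Aldh1a2*, *Dpt*, *Lum* and *Dcn* were named here after their values were seen.

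The 4 endothelial markers had medians of 0.65 and -0.11, with sums of 11.7 and 18.5 in the control against 18.8 and 16.2. The 6 urothelial markers had medians of 0.10 and 0.06, with sums of 92.9 and 112 against 98.3 and 118. The 4 leukocyte markers had medians of 0.27 and -0.14, with sums of 3.57 and 3.37 against 3.80 and 3.11, and the 3 glial markers had medians of -0.62 and 0.19, with sums of 4.18 and 3.72 against 2.73 and 4.49. Of 4 kidney epithelial markers *Umod*, *Slc34a1* and *Nphs1* were not well above background, and *Lrp2* stood at 1.23 and 0.28 with control intensities of 61.0 and 35.7. The part of these cell types in the values of the lysyl oxidase and elastic fibre genes was not tested.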

How the data were processed

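RNA pools of cyclopamine-treated and control P0 ureters were hybridised to 2 two-colour arrays with the dyes swapped. The authors deposited one scanner file per array with processed intensity per spot, from Agilent's Feature Extraction software (the file headers give version 12.2.0.7, the submitters' processing notes 10.7.3.1). These values were background-subtracted and dye-balanced within the array by the software. The deposited log10 ratio (red over green) served to check the direction. The deposited series table holds 1 score for each probe. Judged by its values it is a signed fold of cyclopamine over control in 1 direction throughout. Its signed value was within 0.1 of the signed fold computed here for 94.0% and 91.6% of 25975 probes. Its columns have a median of 1.00, and how the spots behind it were scaled and averaged is not given in the sources used here.

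Control spots and outlier spots (2.89% and 3.15%) were left out, and spots of a probe were averaged on the log2 scale. Probes entered the test when a share of 0.5 or more of the spots stood well above background in 1 of the groups on each array. Log2 ratios, turned for the dye swap, were tested with R 4.3.3 and its package limma 3.58.1 (a linear fit with empirical Bayes variances, two-sided, Benjamini-Hochberg adjustment over 25975 probes, limit 0.05), after the steps had been tested on simulated data. Each array holds its own control, and the array was the pair. Probe names equalled the RefSeq symbols for all 17 probes. Positions come from the annotation of the array (mm9), which gives no exon or UTR. Gene lengths are those of the RefSeq gene table and used only as lengths. The precision is limited by the number of arrays.

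The genes, the lists and the tests were chosen with earlier results of these data known. All 10 genes were named, and from each list the called genes and the highest and lowest by mean log2 ratio. One gene of the SHH target list is not reported here. Alternatives were other background corrections, the series table, no filter on dim probes, an intensity trend in the prior, separate channels, the mean over probes, centring, removal of the length trend and each array alone.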

Additional observations from a re-analysis of the deposited data

Results flagged for a closer look

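For 5 of the 10 genes the array of the female pools and that of the male pools gave opposite signs, as they did for 42.4% of all tested genes. The log2 ratios of replicates 1 and 2 differed by 1.33 for *Fbn1* (0.76 and -0.57), 0.78 for *Fbn2* (0.13 and -0.66), 0.62 for *Loxl4* (0.01 and -0.61), 0.58 for *Loxl3* (0.40 and -0.18) and 0.43 for *Loxl2* (0.37 and -0.06). The medians of gene lists also had opposite signs on the arrays: they differed by 0.51 for the 10 genes, 0.69 for the microfibril partners, 0.23 for the lysyl oxidase maturation genes, 1.00 for the fibrillar collagens and 0.25 for the genes of elastin breakdown and its inhibitors. With 1 array per sex these differences were not tested, and sex, dye orientation and replicate cannot be told apart.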

How the results depend on the processing

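With the authors' value table, with normexp at an offset of 50 and with 4 separate channels and no replicate block, limma called 0 of the 10 genes instead of 1. At an unadjusted p below 0.05 by limma the value table held 2 of the 10 and 1869 of all probes, normexp 2 and 2089, and the separate channels 1 and 517, and the first and last called 0 probes in all, normexp 54. The array is the only pair in this design, and no other replicate block could be fitted. The mean log2 ratio of *Lox* in the 3 settings was 1.00, 1.00 and 1.01, and it lay between 0.96 and 1.07 over 9 alternatives that used both arrays. At 2-fold instead of 1.5-fold the filter of the study's kind passed 0 of the 10 genes. On a single array at 1.5-fold it passed 2 to 3 (*Lox*, *Loxl1* and *Fbn1* on replicate 1, *Lox* and *Fbn2* on replicate 2). The calls in the pathway lists fell from 1 to 0 with the value table, with normexp at an offset of 50 or 10 and with separate channels (6, 6, 7 and 1 of the listed genes at an unadjusted p below 0.05), and numbered 3 with the length trend removed (*Col11a1*, *Col2a1* and *Mmp7*). The mean of *Fbn1* turned to -0.016 with the length trend removed.

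On single arrays the log2 ratio ranged from -0.062 to 0.37 for *Loxl2*, -0.18 to 0.40 for *Loxl3*, -0.61 to 0.0069 for *Loxl4*, -0.57 to 0.76 for *Fbn1* and -0.66 to 0.13 for *Fbn2*, while *Lox* stayed between 0.67 and 1.35. The medians ranged from -0.13 to 0.38 for the 10 genes, -0.23 to 0.46 for the microfibril partners, -0.19 to 0.036 for the maturation genes, -0.38 to 0.62 for the collagens and -0.047 to 0.20 for elastin breakdown. Of all recomputed values, 185 kept their direction and, where they had one, their side of the threshold or their count. Another 11 turned direction, 11 lost a call or had fewer calls and 3 had more. Ratios of single arrays, means over probes and medians carried no p-value, so for them only the direction could be read. A single array is part of the mean it was compared with, so the 185 does not measure how stable the results are. The cause of each change was not tested. Dim probes, such as those of *Loxl4* on replicate 2, *Mmp7* and *Adamtsl2*, limit what can be read from their ratios.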
